A study of Gallus gallus with 16 samples.

Results

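Mitochondria carry a ribosome of their own, which translates the few mRNAs of mitochondrial DNA into membrane subunits of the respiratory chain and of ATP synthase. Its rRNAs are mitochondrial, while its proteins are made from nuclear genes in the cytosol and imported. Some of these proteins descend from bacterial ribosomal proteins and others exist only in mitochondrial ribosomes, and the epithelium of the small intestine, which absorbs nutrients by active transport, depends on the respiratory chain that this ribosome helps to build.

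The mitochondrial ribosomal protein genes were taken as all genes whose symbol in the array's annotation begins with MRPL or MRPS followed by a digit, from probe sets with exactly 1 symbol. This gave 67 genes from 96 probe sets, out of 13009 genes and 38439 probe sets on the array. Of the 67 genes, 48 had 1 probe set and 19 had several, and the probe set with the highest mean over the arrays stood for each gene. The probe set shared by MRPS7 and MIF4GD was left out.

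The arrays measured RNA from the duodenum, the upper small intestine, of chickens from lines selected in opposite directions for residual feed intake, the feed eaten beyond what weight and gain account for. The 4 groups were LRFI (low residual feed intake) at day 42, LRFI at day 35, HRFI (high residual feed intake) at day 42 and HRFI at day 35, with 4 arrays in each of the 4 groups. The labels name no treatment. They do not name the birds behind the replicates, so p-values measure the spread between arrays, which may be technical. Levels are log2 values, and differences are taken only between arrays for the same probe set. Levels are also placed against the median and the lower quartile of all values, which only sorts brighter from dim probe sets. The whole tissue was measured, so fewer cells of a type and less RNA per cell cannot be told apart in any result below.

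Markers of absorptive epithelium were high on all 16 arrays: 13 of 15 were measured, FABP1 lay at 14.54 to 14.71 and VIL1, the villin of the brush border, at 11.87 to 12.36. Pancreatic enzyme transcripts stood apart on 2 arrays, LRFI day 42 replicate 2 and HRFI day 35 replicate 3, where 16 pancreatic markers averaged 10.26 and 12.53, against 4.81 to 5.63 on the other 14 arrays. The difference between the 3′ and 5′ control probe sets of actin, a control for RNA degradation and short labelled products, was over 1 on 5 arrays. It was 1.13 and 1.48 on LRFI day 35 replicates 3 and 4, 1.20 on HRFI day 42 replicate 4, and 1.83 and 2.07 on HRFI day 35 replicates 2 and 3. The other 11 arrays lay at 0.19 to 0.50, and none of the 4 LRFI day 42 arrays was over 1. For GAPDH the same difference lay at 0.36 to 0.40 in LRFI at day 42 and at 0.05 to 0.31 in the other groups.

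By known place in the ribosome, 45 of the 67 genes encode proteins of the large subunit and 21 proteins of the small subunit. MRPS30 and MRPS18A, in spite of their names, belong to the large subunit. MRPS36 is counted in neither, since its mammalian protein is a part of the 2-oxoglutarate dehydrogenase complex. A bacterial counterpart is known for 38 of the proteins. In the large subunit these 26 are MRPL1, MRPL2, MRPL3, MRPL9, MRPL10, MRPL12 to MRPL24, MRPL27, MRPL28, MRPL30, MRPL32, MRPL33, MRPL34, MRPL47 and MRPS18A. In the small subunit the 12 are MRPS2, MRPS5, MRPS6, MRPS7, MRPS9, MRPS10, MRPS11, MRPS12, MRPS14, MRPS16, MRPS17 and MRPS21. The 28 proteins specific to mitochondria are MRPL37 to MRPL46, MRPL48, MRPL50, MRPL51, MRPL53, MRPL54, MRPL55, MRPL57, MRPL58 and MRPS30 in the large subunit, and MRPS22, MRPS23, MRPS25, MRPS26, MRPS27, MRPS31, MRPS33, MRPS34 and MRPS35 in the small subunit.

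The mean level was above 5.07, the median of all values on the arrays, for 62 of the 67. No detection call was made, so this does not show which genes were detected. The 5 below it were MRPL1, MRPL21, MRPL30, MRPL33 and MRPL34, of which MRPL30 and MRPL34 also lay below 3.75, the lower quartile of all values. MRPL30 (range 0.29 over the 16 arrays) and MRPL34 (range 0.34) had the narrowest ranges of all members, followed by MRPL23 (range 0.41, group means 9.67 to 9.85), the counterpart of the bacterial protein at the exit of the peptide tunnel. The widest ranges were those of MRPL43 (1.45), MRPL45 (1.22) and MRPS10 (1.13). The median SD of a member within its group was 0.19 log2 units, against 0.18 for all genes and 0.20 for all genes above the median level.

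The mean over the 67 genes was 9.44, 9.51, 9.35 and 9.25 on the LRFI day 42 arrays (replicates 1 to 4). It was 9.41, 9.30, 9.57 and 9.62 on the LRFI day 35 arrays. It was 9.52, 9.52, 9.42 and 9.48 on the HRFI day 42 arrays and 9.39, 9.56, 9.50 and 9.36 on the HRFI day 35 arrays. All groups overlapped, and the lowest single array was LRFI day 42 replicate 4. The group means were 9.39 ± 0.11 in LRFI at day 42, 9.48 ± 0.15 in LRFI at day 35, 9.48 ± 0.05 in HRFI at day 42 and 9.45 ± 0.09 in HRFI at day 35 (SD, n = 4 each). The large subunit had the same order (9.16 ± 0.10, 9.25 ± 0.14, 9.25 ± 0.04 and 9.22 ± 0.08 in the same groups), and so did the small subunit (9.82 ± 0.15, 9.91 ± 0.16, 9.93 ± 0.07 and 9.88 ± 0.12), with LRFI at day 42 lowest in each, within the spread of the arrays.

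**Figure D1:**
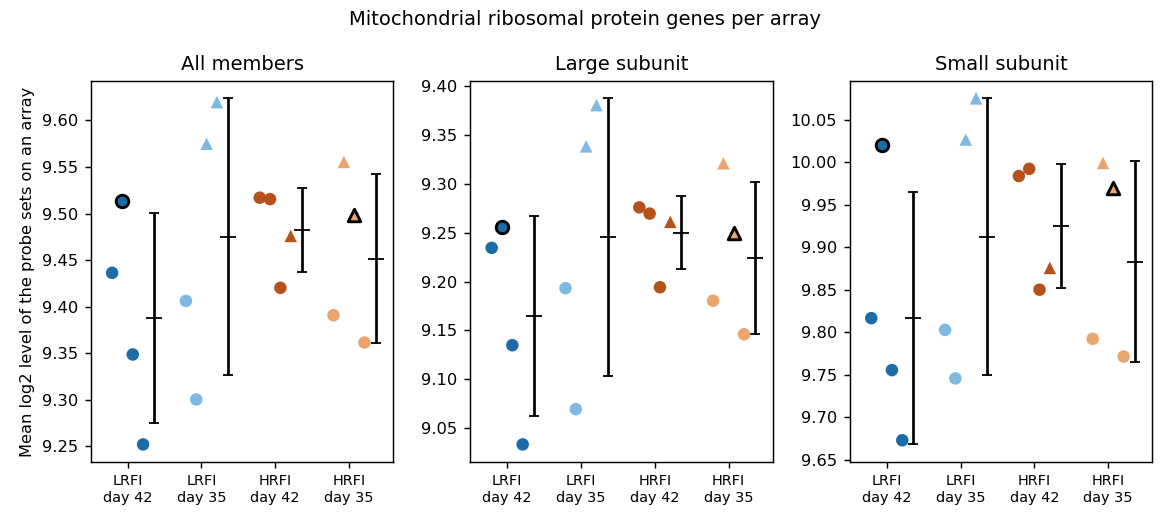
Mean log2 level of all 67 mitochondrial ribosomal protein genes, of the 45 of the large subunit and of the 21 of the small subunit (vertical axes) on each array, by group (horizontal axis). Points are arrays, triangles mark the 5 arrays with an actin 3′ minus 5′ difference over 1, black outlines the 2 arrays with pancreatic enzymes, and black bars the group mean ± SD (n = 4). The 2 triangles of LRFI day 35, at 9.57 and 9.62, lie above every other array in the panel of all members.

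Within a group many of the genes went up and down together from array to array, least so in HRFI at day 42. In LRFI at day 42, 55 of the 67 lay above their own group mean on replicate 2 and 7 on replicate 4. In LRFI at day 35 the counts were 17, 9, 54 and 59 on replicates 1 to 4. In HRFI at day 42 they were 46, 40, 15 and 35, and in HRFI at day 35 they were 18, 51, 47 and 18. Over all genes the share above the group mean was 45.0% to 54.0% on every array. In both day 35 groups the arrays with the high counts were those with an actin difference over 1: their member means were 9.57 and 9.62 against 9.41 and 9.30 in LRFI, and 9.56 and 9.50 against 9.39 and 9.36 in HRFI. On the single such array of HRFI at day 42 the mean was 9.48, between the 9.42 and 9.52 of the rest of its group. On LRFI day 42 replicate 2, which carried pancreatic enzymes, the mean was 9.51, the highest of its group. The part of RNA quality and of pancreatic tissue in these shifts was not tested.

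At day 42, 52 of the 67 genes read lower in LRFI than in HRFI and 15 higher, with a median difference of -0.10, against -0.01 over all genes, 53.5% of which were lower. None of the genes passed the limma test at an adjusted p under 0.05, which 0.0026% of all probe sets passed, and the lowest adjusted p of a member was 0.862. At an unadjusted p under 0.05, 5 of the 67 were lower (3.37% of all genes) and 0 were higher (2.21% of all genes). This count of 5 was 0 without LRFI replicate 4, 1 without LRFI replicate 3, 2 without HRFI replicate 1, 3 without HRFI replicate 4, 8 without LRFI replicate 1 and 11 without LRFI replicate 2, all at day 42, and 0 with the GAPDH difference as a covariate. The groups did not overlap for 6 genes that were lower in LRFI (2.85% of all genes) and for 0 that were higher (1.57% of all genes). Both subunits leaned the same way: 34 of 45 large-subunit genes (median -0.10) and 17 of 21 small-subunit genes (median -0.15) were lower.

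MRPL47, the counterpart of a bacterial protein beside the exit of the peptide tunnel, had the smallest p. It read 5.38, 5.52, 5.15 and 5.09 in LRFI at day 42, against 5.82, 5.70, 5.54 and 5.45 in HRFI at day 42. Only LRFI replicate 2 reached into the HRFI range, and the level is close to the median of all values. The difference was -0.34 (SE 0.13, unadjusted p 0.0212, limma), which did not pass the adjusted test. MRPS17, an rRNA-binding protein of the small-subunit body, read 10.98, 11.18, 11.11 and 10.96 in LRFI at day 42, against 11.35, 11.20, 11.24 and 11.44 in HRFI at day 42. Every LRFI array lay below every HRFI array, with a difference of -0.25 (SE 0.10, limma adjusted p 0.87).

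MRPL27, whose bacterial counterpart reaches the peptidyl transferase centre, read 11.20, 11.49, 11.02 and 11.02 in LRFI at day 42, against 11.58, 11.55, 11.39 and 11.52 in HRFI at day 42. Only LRFI replicate 2 reached into the range of the HRFI arrays, and the difference was -0.33 (SE 0.13, limma adjusted p 0.873). MRPS5 (-0.25) and MRPL10 (-0.31), the base of the stalk to which translation factors bind, were the other 2 genes at an unadjusted p under 0.05. The groups without overlap were those of MRPS17, MRPL10, MRPL32 (-0.21), MRPS22 (-0.25), MRPS36 (-0.19) and MRPL12 (-0.08). Of these, all but MRPS17 are named because their values were seen. MRPL12 is the stalk protein itself, and MRPL32 in yeast and mouse is matured by the m-AAA protease. Another MRPL32 probe set above the median level (mean 7.23) differed by 0.10, and its dim ones by -0.05 and -0.14.

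Of the members that read higher in LRFI at day 42, MRPL43 and MRPL19 had wide spreads. MRPL43, a large-subunit protein specific to mitochondria, read 9.80, 9.50, 9.39 and 9.61 in LRFI at day 42, against 9.56, 8.69, 9.48 and 9.15 in HRFI at day 42. The groups overlapped, with HRFI replicate 2 far below the rest, and the difference was 0.36 (SE 0.22). It was 0.18 without that array, and also 0.18 as the mean of its 2 probe sets. MRPL19, which in bacteria sits at the interface of the subunits, was higher by 0.24 (group means 6.58 ± 0.34 in LRFI and 6.34 ± 0.11 in HRFI, SD, n = 4 each), within the spread, and by 0.11 without LRFI day 42 replicate 2.

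Without the 2 arrays that carried pancreatic enzymes, 59 of the 67 genes were lower in LRFI at day 42 and 8 higher, with a median of -0.13. Only LRFI replicate 2 of these belongs to the day 42 groups. Without the 5 arrays with an actin difference over 1, which took only HRFI replicate 4 from these groups, 53 were lower and 14 higher, with a median of -0.10. With the actin difference as a covariate the median was nearer to 0, at -0.06, with 51 lower and 16 higher. With the GAPDH difference as a covariate 49 were lower and 18 higher, with a median of -0.12. That difference was 0.36 to 0.40 in LRFI and 0.11 to 0.16 in HRFI at day 42, so this setting cannot separate it from the line. No member passed in any of these settings.

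At day 35 the balance was the other way and smaller: 39 genes were higher in LRFI than in HRFI and 28 lower, with a median of 0.03 against 0.00 over all genes. None passed the limma test, as for all probe sets (0%). At an unadjusted p under 0.05, 1 was higher (4.02% of all genes) and 0 were lower (3.29% of all genes), and the groups did not overlap for 0 members, with backgrounds of 1.24% higher and 1.51% lower. The single gene was MRPL37, a large-subunit protein specific to mitochondria, which read 9.83, 9.82, 10.03 and 10.04 in LRFI at day 35, against 9.54, 9.64, 9.64 and 9.93 in HRFI at day 35. One HRFI array lay within the LRFI range, and the difference was 0.24 (SE 0.11, limma adjusted p 0.749). It was 0.09 without the arrays with an actin difference over 1. The other MRPL37 probe set, also above the median level (mean 9.02), differed by 0.12 (limma adjusted p 0.904).

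MRPL45, which holds the large subunit against the inner mitochondrial membrane, was higher in LRFI at day 35 by 0.26 (SE 0.13), an excess that did not pass. It was 0.06 without the arrays with an actin difference over 1, and 0.16 without HRFI day 35 replicate 3 alone. On the other side, MRPS34, a small-subunit protein, was lower by 0.15 and MRPL13, counterpart of a bacterial large-subunit protein, by 0.16. Without the actin arrays the LRFI minus HRFI difference was -0.06 for MRPS34 and -0.35 for MRPL13, and that of MRPL13 ran from -0.08 without LRFI day 35 replicate 2 to -0.26 without replicate 3 of that group. The median over the members was -0.02 without the arrays with an actin difference over 1, where 40 of the 67 were lower. It was also below 0 when LRFI day 35 replicate 3 (-0.02), LRFI day 35 replicate 4 (-0.03) or HRFI day 35 replicate 4 (-0.03) was left out.

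The comparison of the lines at the 2 ages uses different arrays. Of the 67 genes, 31 were lower in LRFI at day 42 and higher at day 35 (46.3%, against 27.4% of all genes), 21 were lower at both ages (31.3%, against 26.1%), 8 were higher at both (11.9%, against 22.3%) and 7 were higher at day 42 only (10.4%, against 24.1%).

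**Figure D2:**
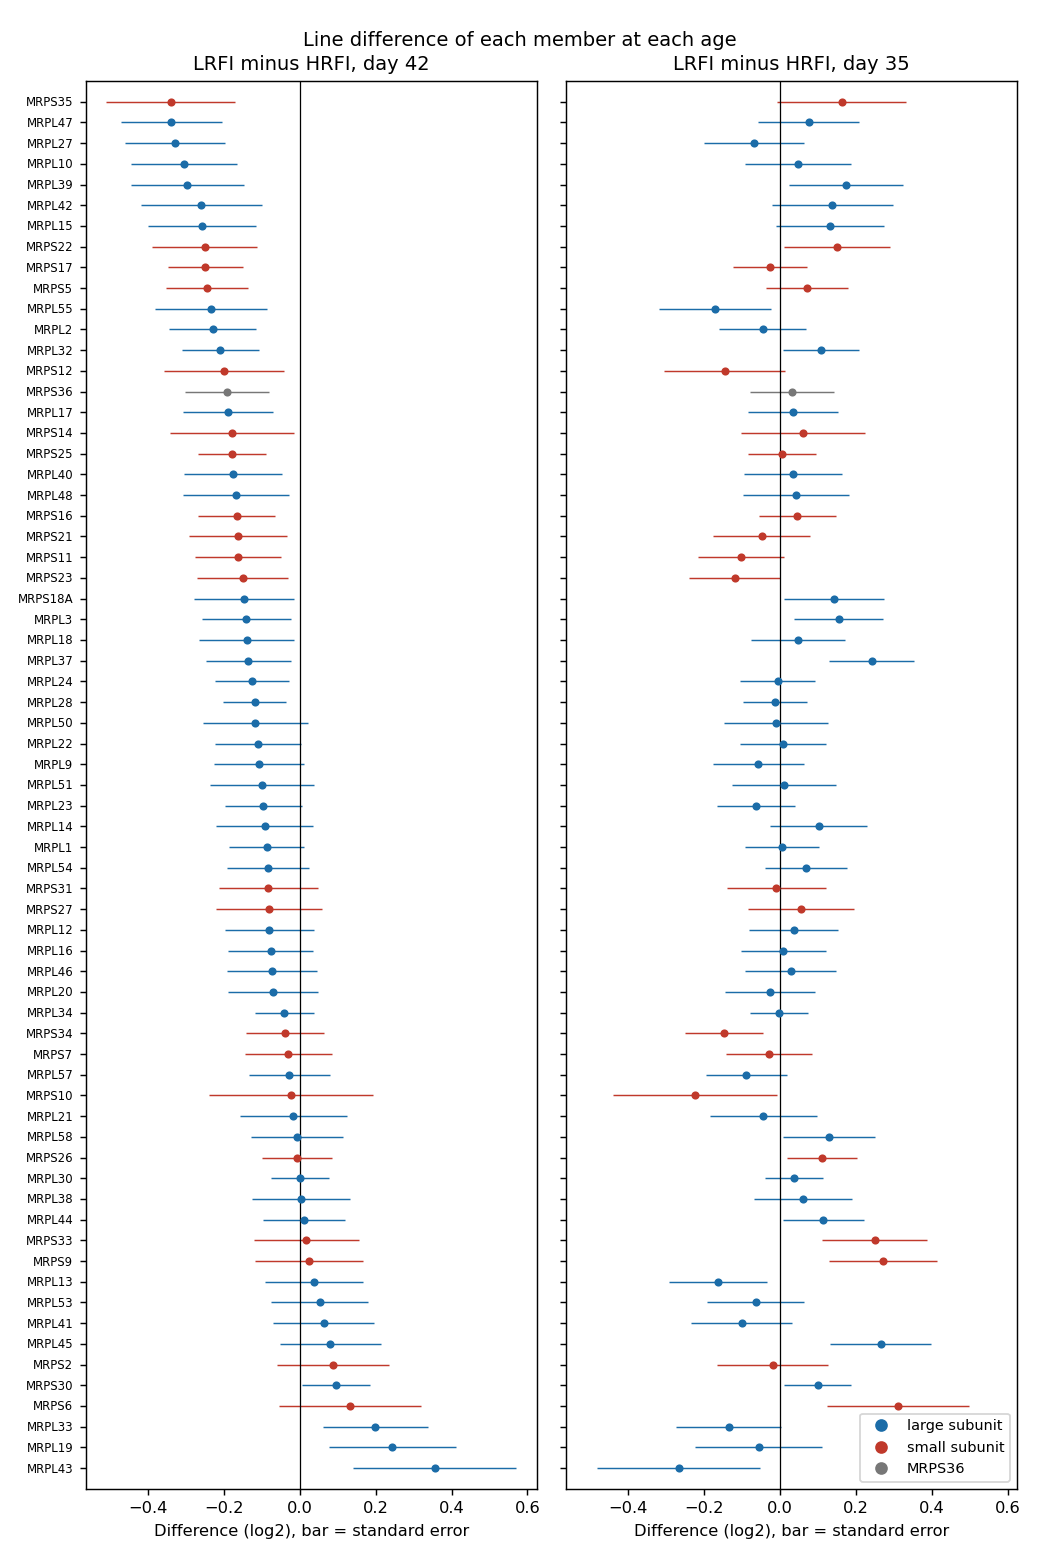
LRFI minus HRFI difference of each of the 67 genes (rows, ordered by the day 42 value) at day 42 and at day 35, in log2 units, with bars for the standard error of the limma fit. Blue points are large-subunit genes, red points small-subunit genes and the grey point MRPS36. Most points lie left of 0 at day 42, from -0.34 to 0.36, and on both sides of 0 at day 35.

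Averaged over both ages, 50 genes were lower in LRFI and 17 higher, with a median of -0.05 against -0.01 over all genes. With the actin difference as a covariate 39 were lower and 28 higher, and the median was -0.0091, against -0.0068 over all probe sets. Without LRFI day 35 replicate 2 the split was 38 lower and 29 higher, with medians of -0.0092 and -0.0073. In these 2 settings the members' median was close to that of all probe sets. None passed the limma test (0% of all probe sets). The unadjusted p was under 0.05 for 1 lower gene (3.12% of all genes) and for 0 higher ones (2.58% of all genes). The single gene was MRPL27, with a difference of -0.20 (SE 0.09, limma adjusted p 0.897). MRPS17 differed by -0.14. The genes with the smallest p among those that read higher were MRPL45 (0.17) and MRPS6, a platform protein of the small subunit (0.22). Without the arrays with an actin difference over 1, MRPL45 differed by 0.06, and without those with pancreatic enzymes by 0.07. MRPS6 differed by 0.14 without LRFI day 42 replicate 3. MRPS6 spread widely in LRFI, with 10.53 ± 0.43 at day 42 and 10.84 ± 0.24 at day 35, against 10.40 ± 0.06 and 10.53 ± 0.29 in HRFI at the same ages (SD, n = 4 each).

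The line by day interaction, the LRFI minus HRFI difference at day 42 minus that at day 35, was below 0 for 56 of the 67 genes and above 0 for 11. Its median was -0.12, against -0.01 over all genes, 52.5% of which were below 0. None passed the limma test (0% of all probe sets). The unadjusted p was under 0.05 for 4 genes below 0 (4.14% of all genes) and for 0 above it (2.87% of all genes). This count of 4 was 0 without LRFI day 42 replicate 4, without HRFI day 42 replicate 2 or with the GAPDH difference as a covariate. It was 10 without LRFI day 35 replicate 2. The 4 genes were MRPL37 (-0.38, SE 0.16, limma adjusted p 0.752), MRPL39, which resembles a tRNA synthetase (-0.47, SE 0.21, limma adjusted p 0.774), MRPL32 (-0.32) and MRPL47 (-0.41). MRPL32 and MRPL47 are named because their values were seen. The other MRPL32 probe set above the median level had an interaction of -0.02, and the dim ones had 0.05 and -0.29. That of the other MRPL37 probe set was -0.24. The interaction of MRPL39 ran from -0.59 to -0.35 over the alternative settings. On LRFI day 42 replicate 4 MRPL39 read 9.02, against 9.47 to 9.56 on the rest of that group. Above 0 stood MRPL43 (0.62, SE 0.30) and MRPL33 (0.33, SE 0.20), a small large-subunit protein with a bacterial counterpart whose level was below the median of all values. The interaction of MRPL33 was 0.19 without LRFI day 42 replicate 1, that of MRPL43 was 0.34 as the mean of its probe sets, and that of MRPL37 was -0.19 without the arrays with an actin difference over 1. With the GAPDH difference as a covariate these 3 genes had interactions of 0.20, 0.96 and -0.13 in that order. The GAPDH difference was 0.36 to 0.40 in LRFI at day 42 and no higher than 0.31 in any other group. This setting therefore cannot separate it from the group that sets the interaction. Without the arrays with an actin difference over 1 the split was 45 below and 22 above 0, with a median of -0.10.

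In LRFI, 51 of the 67 genes read lower at day 42 than at day 35 and 16 higher, with a median of -0.13 against -0.01 over all genes, 51.7% of which were lower. None passed the limma test (0% of all probe sets). At an unadjusted p under 0.05, 5 were lower (6.9% of all genes) and 2 higher (4.93% of all genes). The count of 5 was 19 without LRFI day 35 replicate 2 and 2 without replicate 3 or replicate 4 of that group. It was 0 with the GAPDH difference as a covariate. The groups did not overlap for 2 lower genes, MRPS16 and MRPL32 (3.07% of all genes), and for 1 higher gene, MRPL45 (2.46% of all genes). MRPL32 differed by -0.15, but by 0.34 in its other probe set above the median level. Its dim probe sets gave 0.01 and -0.22. The balance turned on a few arrays: without those with an actin difference over 1, among them 2 of the 4 LRFI day 35 arrays, 37 genes were higher and 30 lower, with a median of 0.02.

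MRPL2, whose bacterial counterpart lies beside the peptidyl transferase centre, had the smallest p of this comparison. It read 10.43, 10.31, 10.21 and 10.06 in LRFI at day 42, against 10.59, 10.38, 10.71 and 10.79 in LRFI at day 35. The groups overlapped at 1 day 35 array, and the difference was -0.36 (SE 0.11, limma adjusted p 0.337). It was -0.23 without the arrays with an actin difference over 1. MRPS16, a small-subunit protein with a bacterial counterpart, differed by -0.29 (SE 0.10, limma adjusted p 0.398). The mean over all MRPS16 probe sets gave 0.01, so the probe sets of this gene disagree. MRPL45 (0.36) and MRPL19 (0.39) were the 2 higher genes at an unadjusted p under 0.05, and MRPL19 differed by 0.26 without LRFI day 42 replicate 2. The other 3 lower ones, named with their values seen, were MRPS22 (-0.31), MRPL39 (-0.34) and MRPS35 (-0.36). Among the LRFI arrays these 3 genes read highest on day 35 replicates 3 and 4, which had an actin difference over 1. On replicates 1 to 4 of LRFI at day 35, MRPS22 read 10.43, 10.42, 10.83 and 10.90. MRPL39 read 9.59, 9.41, 9.95 and 9.92 there, and MRPS35 read 8.835, 8.814, 9.142 and 9.042.

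In HRFI the genes were split more evenly, with 38 higher and 29 lower at day 42 than at day 35, and a median of 0.03 against 0.00 over all genes. None passed the limma test (0% of all probe sets). The unadjusted p was under 0.05 for 6 higher genes (5.83% of all genes) and 1 lower gene (4.45% of all genes). The groups did not overlap for 3 higher genes, MRPL3, MRPS5 and MRPL45 (2.8% of all genes), and for 1 lower gene, MRPL43 (2.56% of all genes). Without the arrays with an actin difference over 1, 55 were higher and 12 lower, with a median of 0.12. Without HRFI day 35 replicate 4 the median was -0.03.

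The age differences in LRFI and HRFI share no array. Of the 67 genes, 25 were lower at day 42 in LRFI and higher in HRFI (37.3%, against 21.7% of all genes), 26 were lower in both lines (38.8%, against 3899 of the 13009), 13 were higher in both (19.4%, against 28.0%) and 3 were higher in LRFI only (4.48%, against 20.3%).

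**Figure D3:**
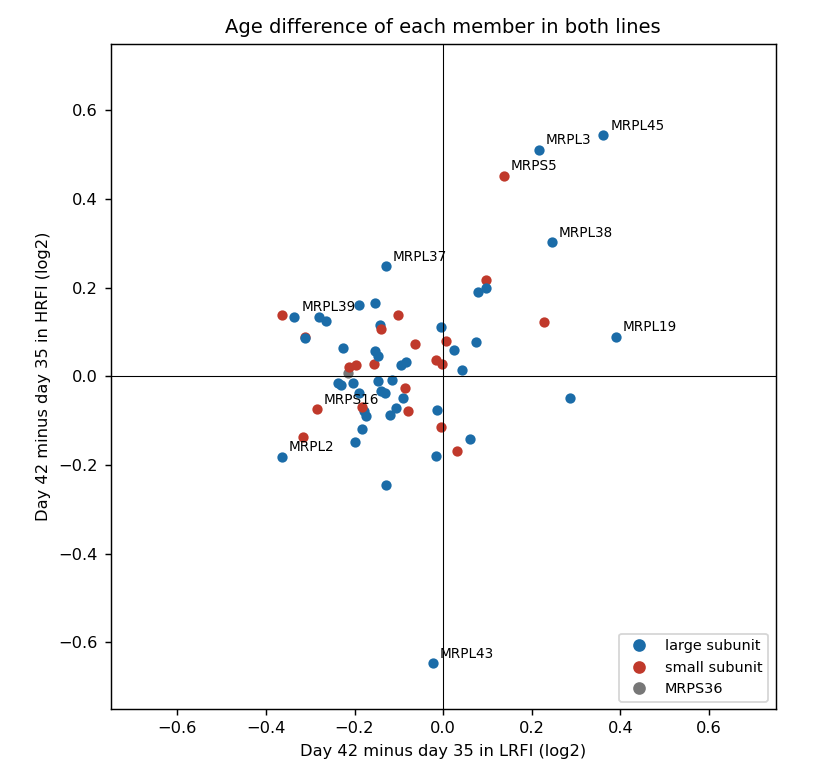
Day 42 minus day 35 difference of each of the 67 genes in LRFI (horizontal axis) and in HRFI (vertical axis), in log2 units. Blue points are large-subunit genes, red points small-subunit genes and the grey point MRPS36. MRPL45, at 0.36 in LRFI and 0.54 in HRFI, lies farthest toward the upper right, and MRPL43, at -0.65 in HRFI, lies lowest.

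Averaged over both lines, 21 genes were higher and 46 lower at day 42 than at day 35, with a median of -0.06 against -0.01 over all genes. None passed the limma test, which 0.0026% of all probe sets passed, and the lowest adjusted p of a member was 0.113. At an unadjusted p under 0.05, 5 were higher (8.15% of all genes) and 3 lower (6.94% of all genes). This balance too depended on the arrays with an actin difference over 1, without which 56 genes were higher and 11 lower, with a median of 0.07. With the actin difference as a covariate 34 were higher and 33 lower.

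MRPL45 had the smallest p of any member in any of the 7 comparisons. It read 9.17, 9.53, 9.29 and 9.05 in LRFI at day 42, against 8.92, 8.93, 9.03 and 8.72 in LRFI at day 35. It read 9.22, 9.24, 9.18 and 9.08 in HRFI at day 42, against 9.02, 8.50, 8.31 and 8.71 in HRFI at day 35. All 8 arrays of day 42 lay above all 8 of day 35, which held for 1 of the 67 genes (0.115% of all genes), and 0 members were lower without overlap (0.0154% of all genes). The difference averaged over the lines was 0.45 (SE 0.09, 95% confidence interval 0.25 to 0.65), a 1.37-fold excess, with a limma unadjusted p of 0.00021 and an adjusted p of 0.113. It was 0.34 without the arrays with an actin difference over 1 and 0.35 with that difference as a covariate.

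MRPL3, whose bacterial counterpart reaches toward the peptidyl transferase centre, was next. It read 10.54, 11.00, 11.02 and 10.72 in LRFI at day 42, against 10.62, 10.48, 10.62 and 10.68 in LRFI at day 35. It read 11.03, 10.98, 10.99 and 10.83 in HRFI at day 42, against 10.58, 10.66, 10.32 and 10.22 in HRFI at day 35. The ages overlapped in LRFI and stood apart in HRFI. The difference was 0.22 in LRFI and 0.51 in HRFI, and 0.36 averaged (SE 0.08, limma adjusted p 0.146), with an interaction of -0.30 (SE 0.17, limma adjusted p 0.811). The mean over its probe sets, of which the other 2 were dim, gave an averaged difference of 0.14.

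MRPS5, counterpart of the bacterial protein near the mRNA entry of the small subunit, read 8.75, 8.87, 8.53 and 8.59 in LRFI at day 42, against 8.77, 8.51, 8.46 and 8.44 in LRFI at day 35. It read 9.01, 9.06, 8.88 and 8.76 in HRFI at day 42, against 8.59, 8.39, 8.30 and 8.62 in HRFI at day 35. As for MRPL3, the ages stood apart in HRFI and overlapped in LRFI. The averaged difference was 0.29 (SE 0.08, limma adjusted p 0.173). MRPL38, a large-subunit protein specific to mitochondria and named because its value was seen, differed by 0.27 (limma adjusted p 0.271), and MRPS26, a small-subunit protein named for the same reason, by 0.16 (limma adjusted p 0.364).

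Of the genes that read lower at day 42, MRPL2 had the smallest p, with an averaged difference of -0.27 (SE 0.08, limma adjusted p 0.225), which was -0.14 without the arrays with an actin difference over 1. MRPL43 read 9.38, 9.06, 10.03 and 9.93 in LRFI at day 35, where the 2 high arrays were those with an actin difference over 1. In HRFI at day 42 it read 9.56, 8.69, 9.48 and 9.15, against 9.60, 9.996, 10.14 and 9.73 in HRFI at day 35, with no overlap. The difference was -0.65 in HRFI (SE 0.22, limma adjusted p 0.429) and -0.02 in LRFI, and it was -0.35 in HRFI with the dim second probe set averaged in and -0.42 without the arrays with an actin difference over 1. Averaged over the lines MRPL43 differed by -0.34 (limma adjusted p 0.407) and MRPS16 by -0.18 (limma adjusted p 0.346), which was -0.12 without the actin arrays and -0.06 as the mean of its probe sets. MRPL53, a protein at the base of the stalk, differed by -0.25 in HRFI by its brighter probe set, while the mean over its 2 probe sets gave 0.055. Without HRFI day 42 replicate 1 it differed by -0.13. MRPS10, a protein of the small-subunit head, spread widely in both day 35 groups. It read 9.15, 9.01, 9.62 and 10.02 in LRFI and 9.23, 9.96, 10.14 and 9.38 in HRFI at day 35, with the higher 2 of each group on the arrays with an actin difference over 1. On the single such array of HRFI at day 42 it read 9.49, within the 9.48 to 9.56 of the rest of that group.

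**Figure D4:**
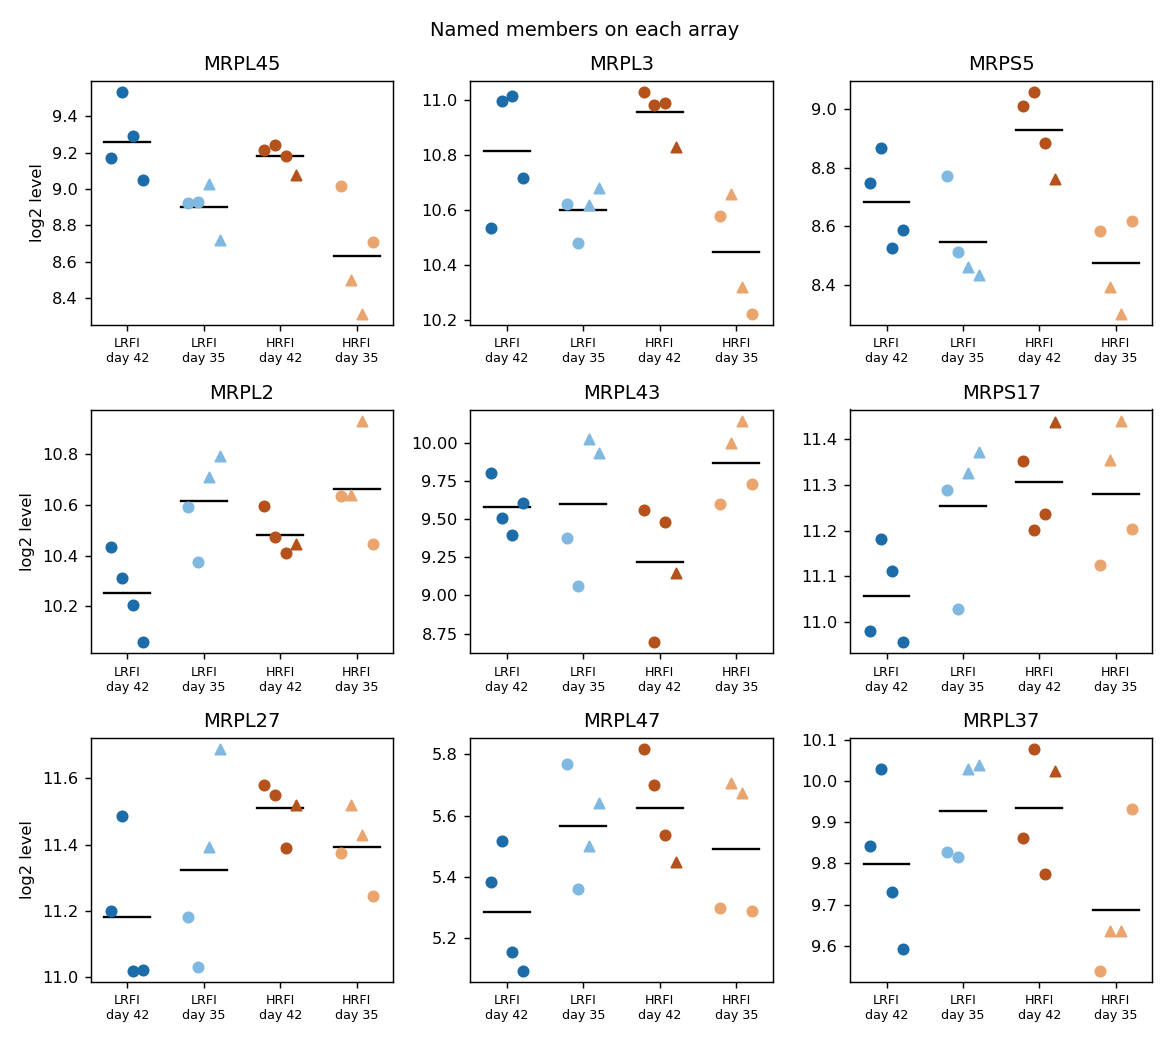
Log2 level (vertical axes) of 9 named genes on each array, by group (horizontal axes). Points are arrays, triangles mark the arrays with an actin 3′ minus 5′ difference over 1, and black lines are group means (n = 4). MRPL45 is above 9.03 on all 8 arrays of day 42, and MRPS17 is lower on every LRFI day 42 array than on any HRFI day 42 array.

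The 19 genes with several probe sets gave 29 further probe sets, 15 of them above the median level and 14 below it. At day 42, 9 of the 15 brighter ones differed between the lines in the same direction as the probe set that stood for the gene, as did 10 of the 14 dim ones. For the average over both ages the counts were 11 of 15 and 8 of 14. For the age difference averaged over the lines they were 9 of 15 and 8 of 14. They were 8 of 15 and 8 of 14 for age in LRFI, and 11 of 15 and 6 of 14 for age in HRFI. The interaction had 10 of 15 and 5 of 14. MRPL45 had no second probe set, and the 2 further ones of MRPL3 were dim, with means of 3.02 and 4.29.

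The proteins that serve the same ribosome were set beside the members. The 4 measured ribosomal proteins with other names (AURKAIP1, CHCHD1, DAP3 and PTCD3) were all lower in LRFI than in HRFI at day 42, by a median of -0.07, and all higher at day 35, by a median of 0.12. None of the 4 passed. Of the 9 initiation, elongation and release factors 5 were lower in LRFI at day 42 (53.5% of all genes). Averaged over the lines, 5 were higher at day 42 than at day 35 (47.3% of all genes), and 0 of the 9 passed. The elongation factor GFM1 averaged 10.25 ± 0.08 in LRFI at day 42 and 10.03 ± 0.17 in LRFI at day 35, and 10.12 ± 0.15 in HRFI at day 42 and 9.73 ± 0.19 in HRFI at day 35 (SD, n = 4 each). Its averaged age difference was 0.30 (SE 0.08, limma adjusted p 0.173). The initiation factor MTIF3 differed between the lines by -0.23 averaged over the ages (SE 0.07, limma adjusted p 0.777).

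With all 16 arrays, assembly factors and tRNA synthetases leaned the other way with age from the ribosomal proteins. Of the 15 assembly and rRNA modification factors 13 read higher at day 42 than at day 35 (median 0.06), and of the 12 mitochondrial aminoacyl-tRNA synthetases 9 did (median 0.13). Against these stood 21 of the 67 ribosomal proteins (median -0.06) and 47.3% of all genes. None of these factors and synthetases passed. Without the arrays with an actin difference over 1, 56 of the 67 ribosomal proteins also read higher at day 42 (median 0.07). The mean of the synthetases was 7.04 to 7.18 on the arrays with an actin difference over 1 and 7.14 to 7.41 on the others. The part of RNA quality in this contrast was not tested. DHX30, an RNA helicase of ribosome assembly, differed by 0.26 (limma adjusted p 0.265) and FARS2, which charges the phenylalanine tRNA, by 0.32 (limma adjusted p 0.225). As means of all probe sets of the gene these were 0.08 for DHX30 and 0.11 for FARS2. Between the lines, averaged over the ages, MTG2, a GTPase of large-subunit assembly, differed by 0.34 (limma adjusted p 0.839) and FARS2 by 0.15 (0.07 as the mean of its probe sets).

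Respiratory complex I assembles with proteins made on this ribosome. The 34 genes named as its nuclear subunits, taken by symbol alone, were also mostly lower in LRFI at day 42. There 31 of the 34 were lower in LRFI than in HRFI (91.2%, median -0.12, against 53.5% of all genes), and at day 35 there were 12 lower and 22 higher (median 0.04). In LRFI, 31 were lower at day 42 than at day 35 (91.2%, median -0.16, against 51.7% of all genes). In HRFI 14 were higher and 20 lower at day 42 (median -0.02), where 38 of the ribosomal proteins were higher and 29 lower (median 0.03). The interaction was below 0 for 28 (82.4%, median -0.13, against 52.5% of all genes). None passed, and the smallest p in the averaged line comparison was that of NDUFB2 (-0.34, SE 0.10, limma adjusted p 0.777), which was -0.12 as the mean of its probe sets. On the 2 LRFI day 35 arrays with an actin difference over 1 the complex I mean was 11.34 and 11.44, against 11.14 and 11.10 on the others of that group. In HRFI at day 35 it was 11.30 and 11.31 on such arrays, against 11.17 and 11.17 on the others. The 66 cytosolic ribosomal proteins were split at day 42, with 35 higher and 31 lower in LRFI (median 0.01), where 46.5% of all genes were higher. At day 35, 55 of them were lower in LRFI (83.3%, median -0.05, against 50.2% of all genes), and 52 of the 66 had an interaction above 0 (median 0.05, against 47.5% of all genes). None of them passed, with RPS27L at -0.08 and RPL12 at -0.09 in the averaged line and age differences. The contrast between these lists and the members was not tested.

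**Figure D5:**
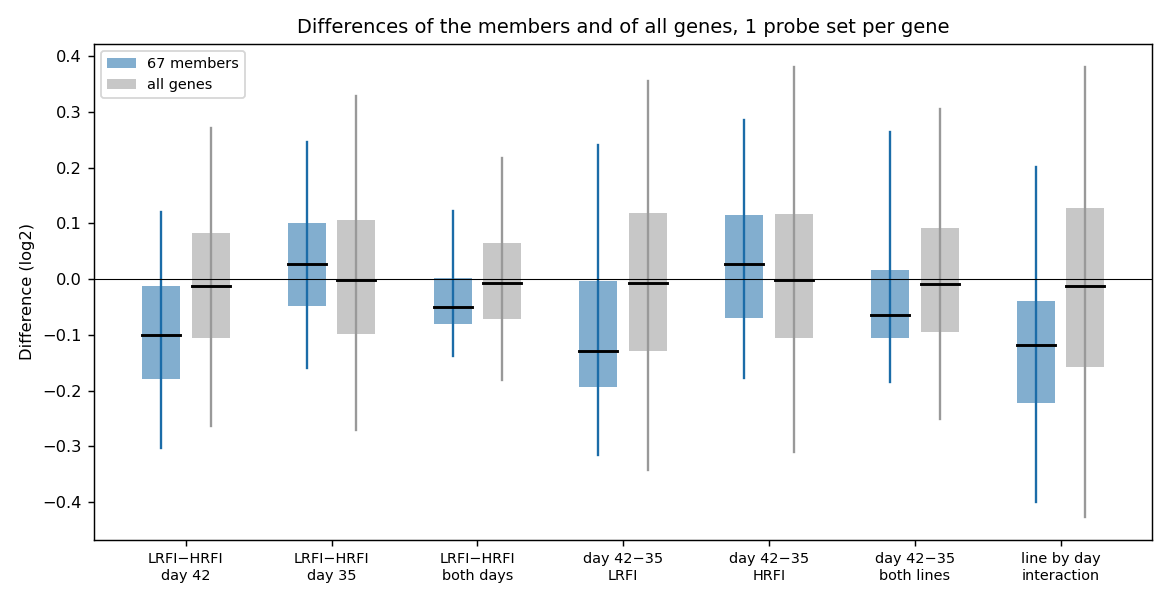
Difference in log2 units (vertical axis) over the 67 mitochondrial ribosomal protein genes (blue) and over all 13009 genes (grey) in each of the 7 comparisons (horizontal axis). Boxes span the quartiles, thin lines the range from the 5th to the 95th percentile, and black lines the median. The members' medians are -0.10 at day 42 between the lines, -0.13 with age in LRFI and -0.12 for the interaction, while those of all genes stay within 0.02 of 0.

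Genes of the cell cycle were high on the same 2 day 35 arrays of LRFI as the members, but not on the day 35 arrays of HRFI where the members were high. The mean of 27 proliferation markers of 30 listed was 7.43 to 7.77 in LRFI at day 42, 7.48 to 8.27 in LRFI at day 35, 7.59 to 7.85 in HRFI at day 42 and 7.34 to 7.77 in HRFI at day 35. The 2 highest values, 8.27 and 8.18, were on LRFI day 35 replicates 3 and 4, which also had the highest member means and an actin difference over 1. In HRFI at day 35 the means were 7.37, 7.51, 7.34 and 7.77 on replicates 1 to 4, with the highest on replicate 4, where the member mean was the lowest of that group. Of the 27 markers 20 were lower in LRFI at day 42 (median -0.13, against 53.5% of all genes). In LRFI at day 35, 26 were higher (median 0.34, against 49.8% of all genes), 8 of these at an unadjusted p under 0.05 in limma (4.02% of all genes). None of the markers passed. The interaction was below 0 for 25 of the 27 (52.5% of all genes), with a median of -0.55. The part of proliferating cells in the members' differences was not tested.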

How the data were processed

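RNA from chicken duodenum was measured on 16 one-colour Affymetrix arrays. The authors deposited log2 values per probe set, made with Partek 6.5 and RMA (background correction, quantile normalization and probe summary), per the submitters' processing notes. Those values were used as deposited. RMA compresses differences of dim probe sets. Arrays give no read depth, so their number limits precision. Genes were named from the platform annotation. All 67 Entrez identifiers matched a RefSeq gene table (GRCg7b), with 0 symbols changed.

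After 96 control probe sets were left out, 38439 entered a fit by limma 3.58.1 under R 4.3.3 (1 mean per group, all 16 arrays, eBayes), with Benjamini-Hochberg adjustment over all of them in each of 7 comparisons. A call needs an adjusted p under 0.05. The fit was tested on simulated data with independent noise and added shifts larger than any member difference. That test therefore does not cover differences of the members' size or genes that shift together. Members are described by counts and medians, with no test over the list. Named were, per comparison, the 2 members with the smallest p in each direction, the 3 with the widest and the 3 with the narrowest range, and from each related list the gene with the smallest p for line and for age. The members, lists and marker sets were chosen with earlier results of these data known. The alternatives were a replicate block, other variances, a level filter, gene means, fewer groups, array centring, RNA quality covariates, and arrays left out.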

Additional observations from a re-analysis of the deposited data

Results flagged for a closer look

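In 3 of the 96 groups of 4 arrays examined, formed by 21 named members and 3 means over members with 4 groups each, 1 array lay far from the others by Dixon's test, where chance marks about 1 group in 20. MRPL33 read 5.31 on LRFI day 42 replicate 1, while the rest of that group lay at 4.67 to 4.77. For MRPL39 the value of LRFI day 42 replicate 4 was 9.02, while the remaining arrays lay at 9.47 to 9.56. MRPL53 read 9.75 on HRFI day 35 replicate 3, the array with the most pancreatic enzyme RNA and an actin difference of 2.07, against 9.47 to 9.50 on the others.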

How the results depend on the processing

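No member was called under any of the up to 26 alternative settings of a comparison, and the lowest adjusted p was 0.0553, for MRPL45 with age when 1 array was left out. The median difference between the lines at day 42 stayed below 0 in all of them (-0.13 to -0.06). The block, the other variances, fewer groups and leaving out a day 35 array cannot change that median, so they are no check on it. The GAPDH covariate cannot be separated from the line there. The medians of the interaction (-0.18 to -0.10, or -0.19 to -0.09 with 1 array left out) and of the averaged lines (-0.07 to -0.01) also stayed below 0. Without the 5 arrays with an actin difference over 1, the median age difference was 0.0177 in LRFI and 0.0666 averaged over the lines. With 1 array left out, the medians ran from -0.13 to -0.07 (lines, day 42), -0.03 to 0.08 (lines, day 35), -0.17 to -0.07 (age, LRFI), -0.03 to 0.06 (age, HRFI) and -0.10 to -0.03 (age, averaged). Among the differences of the genes named by rule, 5 turned direction, none of them called: MRPS16 with age in LRFI (0.0089) and MRPL53 with age in HRFI (0.055) as means of all probe sets, AURKAIP1 with age (0.0501) and MYC between the lines (0.005) without the actin arrays, and PTCD3 between the lines without HRFI day 42 replicate 3 (-0.0029, within a range of -0.0029 to 0.0743 with 1 array left out). Apart from the probe set means, which average in other probe sets, the cause was not tested.

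Calls over all probe sets moved more. For age averaged over the lines there was 1 call, against 0 with the actin covariate, 25 with dim probe sets left out, 13 with centred arrays and 45 without LRFI day 35 replicate 1. For age in LRFI there were 0, against 33 without that array (5 for the lines at day 35 and 8 for the interaction, both 0 with it), and for the lines at day 42 there was 1, against 5 with only those groups fitted. With the replicate number as a block the differences cannot change, since every group holds every number, so only p-values could move. In that setting 19 probe sets were called for averaged age and 11 for age in HRFI (0 without it). Deviations of same-numbered arrays of different groups correlated at -0.325 to 0.353 (median -0.061), and those of other pairs at -0.426 to 0.397 (median 0.009). Of the 16 arrays, 3 correlated best with their own number. Whether arrays with the same number share a bird or a batch cannot be told from these values. The number of arrays, 4 a group, limits all comparisons.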

Other observations

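Genes of neighbouring mitochondrial functions showed no call either. Of 13 measured genes for replication, transcription and RNA stability of mitochondrial DNA, 9 read higher at day 42 than at day 35 averaged over the lines. For this and the 2 lists below, the share of all genes that read higher was 47.3%. TFB2M, a transcription factor of mitochondrial DNA, averaged 9.04 ± 0.24 in LRFI at day 42 and 8.71 ± 0.20 in LRFI at day 35, and 9.18 ± 0.18 in HRFI at day 42 and 8.58 ± 0.39 in HRFI at day 35 (SD, n = 4 each), an averaged difference of 0.47 (SE 0.12, limma adjusted p 0.173), which was 0.28 without the arrays with an actin difference over 1. SSBP1, which coats single-stranded mitochondrial DNA, differed between the lines by 0.22 (limma adjusted p 0.896). Of 21 import genes 12 read higher at day 42. The import chaperone HSPA9 differed with age by 0.23 (limma adjusted p 0.173; 0.15 with the GAPDH difference as a covariate) and TOMM7, a small subunit of the outer membrane import pore, between the lines by -0.16 (limma adjusted p 0.859; -0.09 as the mean of its probe sets). Of 7 regulators of mitochondrial genes 3 read higher at day 42. PPARGC1A, the coactivator known for raising mitochondrial gene expression, differed with age by -0.48 (SE 0.17, limma adjusted p 0.291; -0.27 as the mean of its probe sets) and MYC between the lines by -0.17 (limma adjusted p 0.907; 0.005 without the arrays with an actin difference over 1).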
